A study of Mus musculus with 12 samples.

Results

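These data describe how the transcripts of Tet2 knockout leukemic cells changed between 4 h and 8 h of a transcription block, the later stretch of an actinomycin D time course. The comparison uses 4 of the 12 libraries of the series, which are the 2 knockout (KO) libraries at 8 h and the 2 at 4 h. It was made on the deposited TPM, which give each transcript's share of a library corrected for its length, of every gene with at least 1 TPM in at least 2 of the 12 libraries, on the log2(TPM + 1) scale, and each change is also given relative to the median gene. The cells are the mouse NRAS/AE9a leukemic cells, labelled as acute myeloid leukemia (AML) cells, and the series asks what TET2 does to mRNA in leukemia stemness and homing. They were grown in RPMI 1640 medium with SCF, IL-3, IL-6, G418 and puromycin, which all groups share, and carried either the wild-type (WT) or the Tet2 KO genotype. Every treated group had actinomycin D at 5 µg/ml, for 4 h or 8 h, and the groups labelled 0 h are the starting point. Each of the 6 groups of genotype and time has 2 libraries of total RNA, extracted with TRIzol and made with a stranded mRNA kit. The labels name 1 cell line for each genotype, so the effect of genotype cannot be told apart from other ways in which the lines differ. Nor do they state that libraries of 1 group are separate cultures, and the p-values may then cover only technical spread between libraries.

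Actinomycin D binds DNA and stops RNA polymerases, so that no new transcript replaces those that decay, and the amount left over time reflects the stability of each RNA. Transcripts with AU-rich elements in the 3' untranslated region (UTR), such as those of immediate early genes and cytokine feedback inhibitors, are known to be removed fast by deadenylation and exosomal decay. Those of abundant structural and lysosomal proteins usually last long, and the mRNAs of cell cycle regulators and of the granule proteins of myeloid precursors lie between. TPM are shares of a library, so that after a block a transcript that decays more slowly than the rest gains TPM, and a gain need not mean new synthesis.

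The 4 libraries had 9200 to 9595 genes at 1 TPM or more, and the median tested gene went from 7.97 and 7.99 TPM after 4 h to 5.40 and 5.29 TPM after 8 h. Across genes, Pearson's r between the 2 KO libraries was 0.994 after 4 h and 0.991 after 8 h, and neither reached more than 0.974 with a library of another group. Sequencing depth is unknown, since TPM keep no counts, and no counting interval could be given. KO cells still held Tet2 mRNA, at 10.2 and 10.2 TPM at 0 h and 6.42 and 5.82 at 4 h, against 10.6 and 10.2 in WT cells at 4 h, and since these values sum over all exons, they are a weak check of the genotype label. All 12 myeloid and AML markers were above 1 TPM in the KO libraries at 4 h and 8 h, with a sum of 4502 to 4660 TPM after 4 h and 3132 to 3245 TPM after 8 h. Of 7 markers of T and NK cells only Nkg7 reached 1 TPM, with Cd3e, Cd3d and Ncr1 at 0, and no B cell marker did, with Pax5 at 0. In bulk RNA, fewer cells of a type and less RNA per cell cannot be told apart.

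Between 4 h and 8 h most transcripts of the KO cells lost share, and a smaller set gained it. Changes are log2(TPM + 1) differences given as the estimate ± SE from 2 against 2 libraries, and rose or fell is written only of genes past a limma adjusted p of 0.05. The median gene changed by -0.28 on the log2 scale, with an interquartile range of -0.66 to 0.03, and 72.9% of the 11152 tested genes were below 0. The 4 pairings of an 8 h with a 4 h library gave medians of -0.27 to -0.30, so that the shift did not rest on 1 library. Of all tested genes, 4812 fell (43.1%) and 1000 rose (8.97%) at a limma adjusted p under 0.05, and 1301 (11.7%) and 105 (0.942%) did so with a log2 change past 1. Both 8 h libraries lay below both 4 h libraries for 6519 genes (58.5%) and above them for 1820 (16.3%). Relative to the median gene, 2942 genes were lower (26.4%) and 2171 higher (19.5%). The balance rests on the scale: with median-ratio scaling, which moved the median from -0.28 to 0.08, 3312 genes were higher and 2266 lower. The first 4 h had moved the median by more, -0.70, with 7579 genes lower (68.0%) and 544 higher (4.88%), and the WT cells had a late median of -0.43, with 6115 lower (54.8%) and 769 higher (6.90%).

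How much a gene lost between 4 h and 8 h varied with how abundant it was, with the largest median losses at middle levels. Sorted by their mean TPM in the WT libraries at 4 h, which do not enter the KO change, the 1049 genes above 100 TPM had a median of -0.04, with 332 higher and 371 lower. The 2379 genes between 20 and 100 TPM had a median of -0.37, with 279 higher and 1359 lower, and the 3140 genes between 5 and 20 TPM had -0.48, with 191 higher and 1825 lower. Below that, the 3168 genes between 1 and 5 TPM had -0.28 and the 1416 genes under 1 TPM had -0.07, where the added 1 TPM before the log draws changes towards 0.

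**Figure D1:**
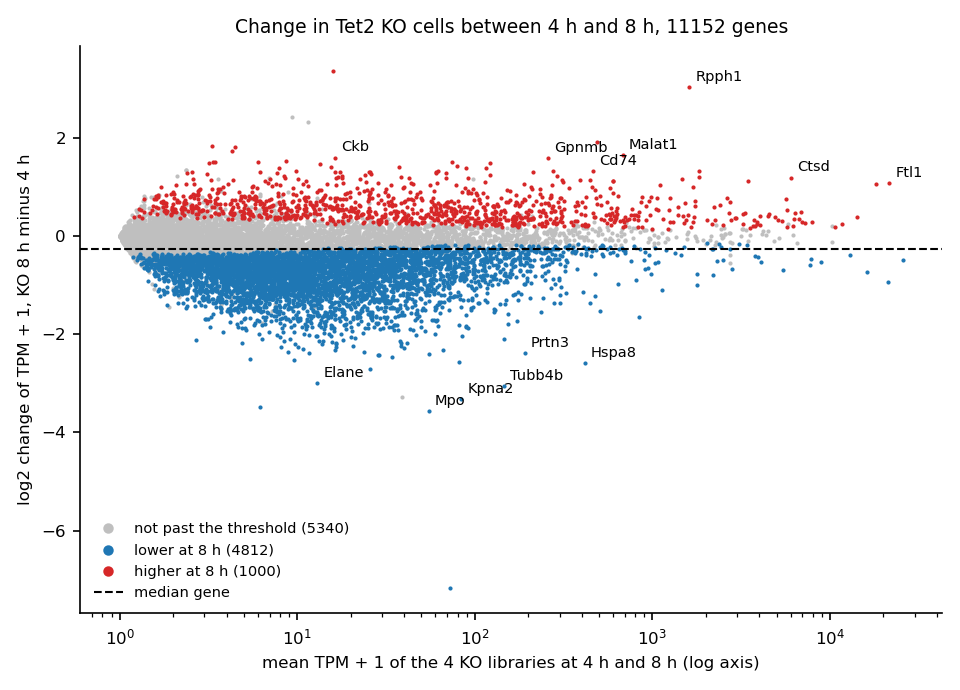
Change between 4 h and 8 h in the KO cells (log2(TPM + 1), vertical axis) against the mean of TPM + 1 over the 4 libraries (log axis) for the 11152 tested genes, each point 1 gene, with a dashed line at the median gene. The 4812 lower genes fill the middle levels, and Mpo, Kpna2 and Tubb4b are lowest and Rpph1 highest among the labelled genes. Some extreme points are not labelled, since pseudogenes and gene models without a symbol of their own are left out by the naming rule.

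Immediate early genes, whose mRNAs encode fast-acting transcription factors and feedback inhibitors, had lost most of their share by 4 h, and few lost more afterwards. Of 47 measured members, 45 fell and 0 rose in the first 4 h, with a median of -2.32, while between 4 h and 8 h 4 fell and 21 rose, with a median of 0.33. The count of members that rose was 13 without KO 8 h replicate 1 and 14 without KO 4 h replicate 1, and relative to the median gene 30 were higher and 2 lower. The contrast between the windows is the change between 4 h and 8 h minus that between 0 h and 4 h. Both share the 4 h libraries, so only this contrast tests their difference. It was higher in 44 and lower in 0 of the 47, and relative to the median gene in 41 and 0. For members left at a few TPM after 4 h, a late loss as large as the early one had no room on this scale. Their higher contrast was fixed by the 4 h level, so these counts do not show that decay slowed. The same limit holds for any single gene at such a level. Over all tested genes that contrast had a median of 0.37 and was higher in 4158 (37.3%) and lower in 864 (7.75%), and relative to the median gene higher in 2787 (25.0%) and lower in 2378 (21.3%). The 864 were 431 without KO 4 h replicate 1 and 433 without KO 4 h replicate 2, and the 2378 were 1460 and 1497.

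An AU-rich nonamer, TTATTTATT, was searched on the sense strand of the longest annotated 3' UTR of each tested gene, where overlapping matches count separately. It is held by 13 of the 47 immediate early members (27.7%) and by 851 of the 10707 tested genes with an annotated 3' UTR (7.95%). The first site of each of 6 of these members is shown because they belong to transcripts that had lost most of their share by 4 h. Dusp1 and Cish hold 2 matches each, and in Cish the second overlaps the first and stays partly in lower case. Each run is 25 bases of the UTR, 5′ to 3′, from the GRCm38 (mm10) genome, with the nonamer in capitals.
Nfkbia (chr12:55489610-55489634, minus strand): accacgttTTATTTATTgtgctttt
Fos (chr12:85477105-85477129, plus strand): ttttcaatTTATTTATTaagatgga
Dusp1 (chr17:26506161-26506185, minus strand): gctggtccTTATTTATTtaacaccc
Zfp36 (chr7:28376953-28376977, minus strand): tgacgactTTATTTATTgtattaag
Zfp36l2 (chr17:84184916-84184940, minus strand): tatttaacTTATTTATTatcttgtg
Cish (chr9:107301379-107301403, plus strand): tacagtatTTATTTATTtattctcc
A match is a description of these letters and not of binding. The 13 members with the nonamer had a median of -2.38 (log2) in the first 4 h and 0.30 in the next, with 5 higher and 0 lower in the later window. The 34 without it had -2.22 and 0.34, with 16 higher and 4 lower.

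Nfkbia, which encodes the inhibitor of NF-kappaB with the first of these sites, fell from 61.0 and 59.9 TPM at 0 h to 1.28 and 0.80 after 4 h and was at 1.88 and 2.16 after 8 h. Both 8 h libraries were above both 4 h libraries, a late change of 0.57 ± 0.13 (SE, 2 against 2 libraries, limma adjusted p = 0.00239), and its late minus early change was 5.50. Cited2, a coactivator induced by cytokines, had 331 and 317 TPM at 0 h, 7.11 and 7.18 after 4 h and 7.29 and 7.38 after 8 h. Nearly all of its loss was early, and the late change of 0.03 ± 0.10 did not pass (limma adjusted p = 0.808). Myc, the growth-promoting transcription factor, went from 121 and 121 TPM to 2.75 and 2.75 and then 3.01 and 3.10, a late change of 0.11 ± 0.13 (limma adjusted p = 0.519). Fos, the AP-1 subunit, had 1.51 and 1.79 TPM after 4 h and 1.23 and 2.80 after 8 h, where the libraries overlap. At levels of 1 to 3 TPM the pseudocount of 1 compresses any change, so that these values do not show that decay ended. For Nfkbia, Cited2 and Myc the level at 4 h left no room on this scale for a late loss as large as the early one.

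Other members gained share, and among them Junb and Ier3 sat well above that floor at 4 h. Junb, another AP-1 subunit, rose from 17.8 and 18.8 TPM to 33.0 and 31.3, by 0.78 ± 0.08 (limma adjusted p = 9.68e-06), after 146 and 149 at 0 h. Ier3, a stress response gene, rose from 12.1 and 11.7 to 20.6 and 20.9 TPM, by 0.76 ± 0.08 (limma adjusted p = 4.92e-06). The cytokine signalling inhibitors Socs1 and Cish, feedback targets of STAT5, were higher too, Socs1 by 1.16 ± 0.22 and Cish by 0.57 ± 0.11. Slfn2, a Schlafen gene of proliferating leukocytes, rose by 0.83 ± 0.12 and Cebpb, a myeloid transcription factor, by 0.76 ± 0.15. Ier5 rose by 1.02 ± 0.15, while the dual-specificity phosphatases Dusp2 and Dusp5 did not pass the late test. Their late minus early changes were 5.02 and 4.93, and over the alternatives in processing these ran from 4.45 to 6.11 and from 4.35 to 6.63. The AU-rich element binding protein Zfp36, itself a holder of the nonamer, had 22.3 and 22.4 TPM after 4 h and 24.8 and 24.7 after 8 h, a change of 0.14 ± 0.10 (limma adjusted p = 0.278). The 4 members that fell were Jund (-1.11 ± 0.15), Id2 (-0.81 ± 0.12), Gadd45a and Gadd45b. Jund, the AP-1 subunit that is not induced as the others are, went from 89.7 and 81.4 TPM at 0 h to 14.6 and 15.3 and then 6.72 and 6.11.

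The granule enzyme genes Mpo, Elane and Prtn3, which are expressed in myeloid precursors, did the opposite, losing little share in the first 4 h and most of it in the next 4 h. Mpo, which encodes myeloperoxidase, had 146 and 137 TPM at 0 h, 99.7 and 102 after 4 h and 8.50 and 6.67 after 8 h. The late change of -3.57 ± 0.12 (SE, 2 against 2 libraries, limma adjusted p = 1.59e-09) was the most negative of the named genes, against -0.49 in the first 4 h, and the difference of -3.09 passed the test (adjusted p = 8.29e-07). Elane, neutrophil elastase, had 29.1 and 27.6 TPM at 0 h, 22.0 and 22.1 after 4 h and 2.33 and 1.51 after 8 h, so both 8 h libraries were far below the rest. Its late change was -3.00 ± 0.12 (limma adjusted p = 1.22e-08) and the difference from the early change -2.65. Prtn3, proteinase 3, went from 394 and 372 TPM to 313 and 325 and then 62.5 and 58.1, a late change of -2.39 ± 0.06 (limma adjusted p = 3.92e-10) and a difference from the early change of -2.12. Elane (chr10:79886247-79888215, plus strand) and Prtn3 (chr10:79874476-79883174, plus strand) are neighbours in the genome, and Mpo lies elsewhere (chr11:87793581-87804413, plus strand). Their 3' UTRs are short, at 96 nt for Mpo, 98 nt for Elane and 198 nt for Prtn3, against a median of 1123 nt over the tested genes, and none holds the nonamer.

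The same direction, with smaller size, was measured for other genes of the granule list. Prss57, a further neutrophil serine protease, fell from 8.75 and 8.81 TPM to 1.17 and 1.74, a change of -2.0 ± 0.14. Ms4a3, a membrane protein of granulocyte-monocyte precursors, fell from 663 and 663 to 273 and 296 TPM, a change of -1.22 ± 0.06, after 707 and 684 at 0 h. Ctsg, cathepsin G, had 1521 and 1571 TPM at 0 h, 1517 and 1568 after 4 h and 701 and 726 after 8 h, a late change of -1.11 ± 0.07 (limma adjusted p = 1.21e-07) after 0.00 in the first 4 h. S100a8, an abundant calcium-binding protein of neutrophils, fell from 28660.1 and 27571 to 14369 and 14802 TPM, a change of -0.95 ± 0.17. Other granule genes went the other way. Ltf, lactoferrin, rose from 81.9 and 81.7 to 129.9 and 132 TPM, by 0.67 ± 0.08, and Lyz2, lysozyme, from 11726 and 11730.5 to 24672 and 24322 TPM, by 1.06 ± 0.06. Wfdc17, the member with the largest gain, rose by 1.14 ± 0.13. Over the 31 measured granule genes 14 fell, near the 43.1% of all tested genes, and 9 rose, above the 8.97% of all tested genes, with a median of -0.22. Relative to the median gene 13 were higher and 9 lower, against 19.5% and 26.4% of all tested genes. With median-ratio scaling 16 were higher and 7 lower, so the list has no direction that holds on every scale. The late minus early change was lower in 12 and higher in 4 of them, against 7.75% and 37.3% of all tested genes. Relative to the median gene it was lower in 14 and higher in 2, against 21.3% and 25.0%.

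**Figure D2:**
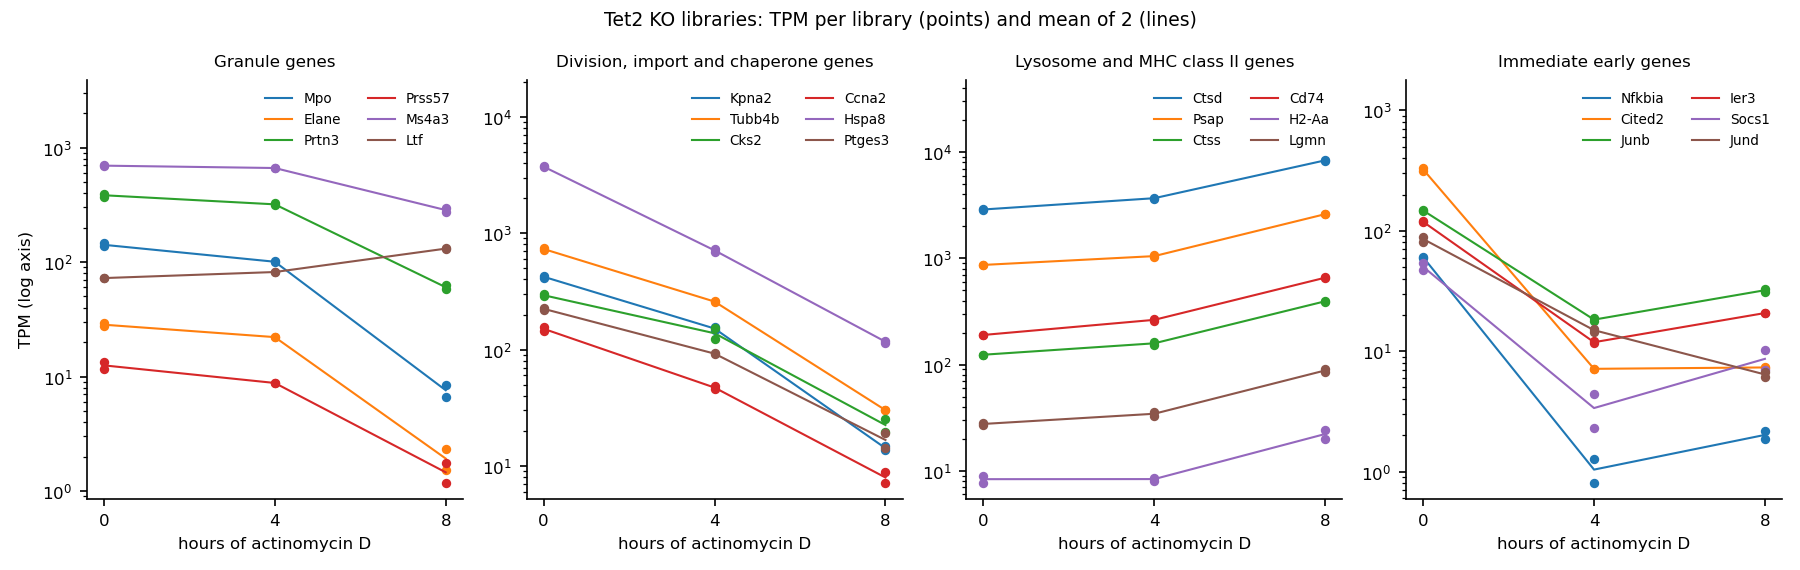
TPM (log axis, own range in each panel) in each KO library at 0, 4 and 8 h of actinomycin D, with 1 point per library and a line through the mean of 2, for granule genes, division, import and chaperone genes, lysosome and MHC class II genes, and immediate early genes. Mpo, Elane and Prtn3 drop mainly after 4 h, Nfkbia and Cited2 drop before it, Kpna2 and Hspa8 drop in both windows, and the lysosomal genes are highest at 8 h.

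Cell cycle transcripts kept falling through the later window. Of 57 mitosis genes 54 fell and 0 rose, with a median of -1.13, and 50 were lower relative to the median gene. Over all tested genes 43.1% fell and 8.97% rose, and 26.4% were lower relative to the median gene. These shares apply to the replication genes below as well. Top2a, the topoisomerase of dividing cells, fell from 131 and 147 TPM to 39.0 and 37.1, a change of -1.84 ± 0.08 (limma adjusted p = 2.98e-08). Ccna2, cyclin A2, fell from 48.4 and 45.9 to 8.81 and 7.11 TPM, a change of -2.43 ± 0.11, and Cks2, a subunit of cyclin-dependent kinases, from 123 and 153 to 25.2 and 19.7, a change of -2.57 ± 0.13. The mitotic motor Kif11 fell (-2.12 ± 0.10) and the kinase Cdk1 (-1.53 ± 0.08). Among 46 replication genes 41 fell and 0 rose, with a median of -0.74, and 30 were lower relative to the median gene. The clamp loader subunit Rfc4 fell from 22.2 and 19.2 to 4.64 and 3.27 TPM, a change of -2.14 ± 0.14, the helicase subunit Mcm6 (-1.36 ± 0.09), and the licensing pair Gmnn and Cdt1 (-1.82 ± 0.12 and -1.50 ± 0.11). The groups of 4 h and 8 h did not overlap for any gene named in these sentences.

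Kpna2, an importin alpha that carries proteins into the nucleus, was among the steepest losses of the whole table. It had 431 and 414 TPM at 0 h, 147 and 156 after 4 h and 14.7 and 13.7 after 8 h, a late change of -3.33 ± 0.08 (limma adjusted p = 9.21e-11) with a late minus early change of -1.85. Of 29 nuclear import and export genes 23 fell and 1 rose, with a median of -0.82, against 43.1% and 8.97% of all tested genes. The exportin Cse1l, which returns importin alpha to the cytoplasm, fell (-1.60 ± 0.10), Ipo7 (-1.58 ± 0.09) and Kpna3 (-1.66 ± 0.12), while the one that rose was Tnpo2 (0.35 ± 0.10). Tubb4b, a beta-tubulin, fell from 256 and 260.1 TPM to 30.3 and 30.1, a change of -3.06 ± 0.07 (limma adjusted p = 9.21e-11), and its relative Tubb5 from 642 and 643 to 252 and 247, a change of -1.36 ± 0.08. Tubulin genes are close paralogs, and reads may be split between them.

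The list of 37 unfolded protein and heat shock genes went both ways, with 19 that fell and 8 that rose, against 43.1% and 8.97% of all tested genes. Relative to the median gene 11 were lower and 11 higher, against 26.4% and 19.5% of all tested genes. The lower counts are near these shares and are no result about the list. With median-ratio scaling 18 were higher and 8 lower. The 8 that rose were 3 without KO 4 h replicate 2, 4 without KO 8 h replicate 2 and 5 without KO 4 h replicate 1. Several cytosolic chaperones are among its losses and among the lowest named genes. Hspa8, the constitutive HSP70, had 3778 and 3669 TPM at 0 h, 689 and 733 after 4 h and 115 and 119 after 8 h. Its late change of -2.60 ± 0.08 (limma adjusted p = 6.76e-10) came after an early one of -2.39, and the difference between the windows, -0.21 ± 0.13, did not pass the test (adjusted p = 0.218). The J-domain cochaperones Dnaja2 and Dnaja1 fell (-2.42 ± 0.11 and -1.85 ± 0.09), the HSP90 cochaperone Ptges3 (-2.41 ± 0.13) and Hspa4 (-1.35 ± 0.09). Dnaja2 had 48.5 and 46.2 TPM after 4 h and 9.0 and 7.18 after 8 h, and Ptges3 90.8 and 93.7 and then 14.3 and 19.1, with no overlap. The endoplasmic reticulum isomerase Pdia6 rose by 0.46 ± 0.07. Further named losses were Vapa, a membrane contact protein, which fell from 56.6 and 57.2 to 8.92 and 10.1 TPM (-2.46 ± 0.09), and Samsn1, an adaptor of immune cells, which went from 148 and 147 at 0 h to 18.2 and 18.8 and 2.57 and 2.89 (-2.39 ± 0.17). Frg1 fell (-2.70 ± 0.13) and the mitochondrial ribosome assembly factor Malsu1 (-2.53 ± 0.29).

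Genes that make, splice, translate and degrade mRNA and protein fell as groups, with few or no members rising. All counts here are out of the measured members, and over all tested genes 43.1% fell and 8.97% rose. The same direction of the balance held with median-ratio scaling, housekeeping scaling and after removal of a trend on transcript length. Relative to the median gene, 26.4% of all tested genes were lower and 19.5% higher. On that scale 50 mitochondrial ribosomal proteins were lower and 1 higher, and 24 and 1 proteasome subunits. SR proteins and hnRNPs had 25 lower and 2 higher, and synthetases 15 and 0. Translation factors had 35 and 9, decay genes 31 and 8, and cholesterol and fatty acid synthesis genes 14 and 4. For mitochondrial ribosomal proteins 66 of 78 fell and 0 rose (median -0.80), with Mrps18a falling from 42.0 and 35.1 to 9.33 and 10.1 TPM (-1.88 ± 0.12). Of 38 proteasome subunits 35 fell (median -0.59), led by the lid subunit Psmd7 from 69.1 and 70.2 to 16.9 and 18.3 TPM (-1.92 ± 0.10). Of 32 SR proteins and hnRNPs, which bind pre-mRNA, 29 fell and 0 rose (median -0.77), with Srsf1 going from 56.1 and 52.5 to 13.7 and 13.6 TPM (-1.92 ± 0.09) and Tra2b lower (-1.86 ± 0.10). Hnrnpa0 did not pass the test, at 210.3 and 209 TPM and then 209 and 214 (limma adjusted p = 0.893). Aminoacyl-tRNA synthetases and their cofactors had 21 of 23 lower (median -0.78), among them the scaffold Aimp1 (-1.89 ± 0.10) and the arginine enzyme Rars (-1.62 ± 0.10). Translation factors had 45 of 63 lower and 3 higher (median -0.62), with the cap-binding Eif4e at -1.89 ± 0.11 and Eif4a3 at -1.61 ± 0.08, while the elongation factor Eef2 rose from 2025 and 1979 to 2524 and 2455 TPM (0.31 ± 0.07). The mRNA decay machinery itself had 42 of 62 lower and 3 higher (0 higher without KO 4 h replicate 2 or KO 8 h replicate 1, and 1 without KO 8 h replicate 2; median -0.62), including the exosome subunits Exosc8 (-1.73 ± 0.11), Exosc9 (-1.49 ± 0.09) and Exosc10 (-1.58 ± 0.10) and the nuclease Xrn2 (-1.31 ± 0.09). Cholesterol and fatty acid synthesis had 22 of 32 lower and 0 higher (median -0.52), Sqle (-2.09 ± 0.16), but 12 higher and 9 lower with median-ratio scaling, which makes it the exception to the scalings named above.

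Lysosomal and antigen presentation genes formed the clearest group of gains. Of 33 measured members 31 rose and 0 fell, with a median of 0.77, against 8.97% and 43.1% of all tested genes. Relative to the median gene all 33 were higher, against 19.5% of all tested genes. Together they held 1.47% and 1.48% of the TPM after 4 h and 2.67% and 2.65% after 8 h. The members that did not pass were Cd53 (0.08 ± 0.07, limma adjusted p = 0.388) and Lamp2 (0.16 ± 0.09, adjusted p = 0.152). Ctsd, the aspartic protease cathepsin D, had 2887 and 2877 TPM at 0 h, 3716 and 3646 after 4 h and 8408 and 8318 after 8 h, a late change of 1.18 ± 0.06 (limma adjusted p = 4.08e-08). Psap, the precursor of the saposins that activate sphingolipid hydrolases, went from 1069 and 1029 to 2625 and 2586 TPM, by 1.31 ± 0.06. Ctss, cathepsin S, which trims the invariant chain, rose from 153 and 164 to 400.1 and 388 TPM, by 1.31 ± 0.07. Cd74, the invariant chain itself, rose from 271 and 256 to 660.0 and 654 TPM, by 1.32 ± 0.07, and the MHC class II chains H2-Aa, H2-Ab1 and H2-Eb1 by 1.30 ± 0.12, 1.03 ± 0.14 and 1.30 ± 0.21. Lgmn, the lysosomal asparaginyl endopeptidase, rose by 1.33 ± 0.09. The late minus early change was higher in 25 of the 33 as deposited (37.3% of all tested genes), but relative to the median gene in 11, with 2 lower (25.0% and 21.3% of all genes), and in WT cells 33 rose in the same window with a median of 0.80.

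Other genes with large gains have varied functions. Gpnmb, a glycoprotein of phagocytes, had 115 and 114 TPM at 0 h, 130.0 and 127 after 4 h and 389.5 and 381 after 8 h, a late change of 1.58 ± 0.08 (limma adjusted p = 3.56e-08). Trem2, a lipid-sensing receptor of macrophages, rose from 35.6 and 39.5 to 112 and 105 TPM, by 1.51 ± 0.08. Anpep, the surface peptidase CD13, rose from 62.3 and 63.4 to 184 and 172 TPM, by 1.48 ± 0.10. Their early changes were smaller, at 0.16, 0.38 and 0.07. Ckb, creatine kinase B, rose by 1.59 ± 0.12, Pltp, the phospholipid transfer protein, by 1.51 ± 0.17 and Pla2g7, a secreted phospholipase, by 1.40 ± 0.13. Others were Col18a1, which encodes a basement membrane collagen (1.39 ± 0.12), the lectin receptor Cd302 (1.39 ± 0.20) and Rab15, a small GTPase of endosomes (1.32 ± 0.13). Cdkn2a, the locus of the cell cycle inhibitors p16 and p19ARF, rose from 47.5 and 49.4 to 127 and 129 TPM, by 1.38 ± 0.13. H2-L (1.46 ± 0.16) is an MHC class I gene with near-identical copies, so its value is uncertain.

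Some of the most abundant transcripts gained share at the same time. Ftl1, the ferritin light chain, rose from 13689 and 14057 TPM to 29341 and 29259, by 1.08 ± 0.05 (limma adjusted p = 4.08e-08), and the heavy chain Fth1 by 1.12 ± 0.06. Tmsb10, an actin-binding thymosin, rose from 879 and 927 to 2037 and 2018 TPM, by 1.17 ± 0.06. Of 32 long-lived housekeeping genes 17 rose and 7 fell, with a median of 0.15. Over all tested genes 8.97% rose and 43.1% fell, which applies to the lists that follow as well. Mast cell genes had 9 of 19 higher and 2 lower (median 0.47), with the tryptase Tpsb2 up by 1.29 ± 0.13, the carboxypeptidase Cpa3 by 0.74 ± 0.08 and the chymase Cma1 by 1.53 ± 0.13, while Hdc, the histamine-forming enzyme, fell (-0.88 ± 0.07). Cpa3 was abundant, at 4081 and 4394 TPM and then 7183 and 6973, and Cma1 was not, at 3.58 and 3.23 and then 9.78 and 13.9. Megakaryocyte genes had 6 of 9 higher and 0 lower (median 0.64). The integrin chain Itga2b rose from 35.1 and 33.5 to 89.4 and 80.2 TPM (1.28 ± 0.09), Vwf by 1.21 ± 0.13 and Pf4 by 0.64 ± 0.14. The adult beta-globin genes Hbb-bt and Hbb-b2 carry identical values, 365 and 394 TPM after 4 h and 811 and 836 after 8 h, and share reads, so neither is certain on its own. Of 7 measured erythroid genes 4 rose and 0 fell (median 0.71), the others past the test being Hbb-b1, near 1 TPM, and the carbonic anhydrase Car2 (0.95 ± 0.18). The summed TPM of the erythroid markers was 369 to 398 in the 4 h libraries and 815 to 843 in the 8 h libraries, while the defining markers Epor, Klf1 and Alas2 were at 0 at both times. Whether other cell types have a part in these gains was not tested.

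**Figure D3:**
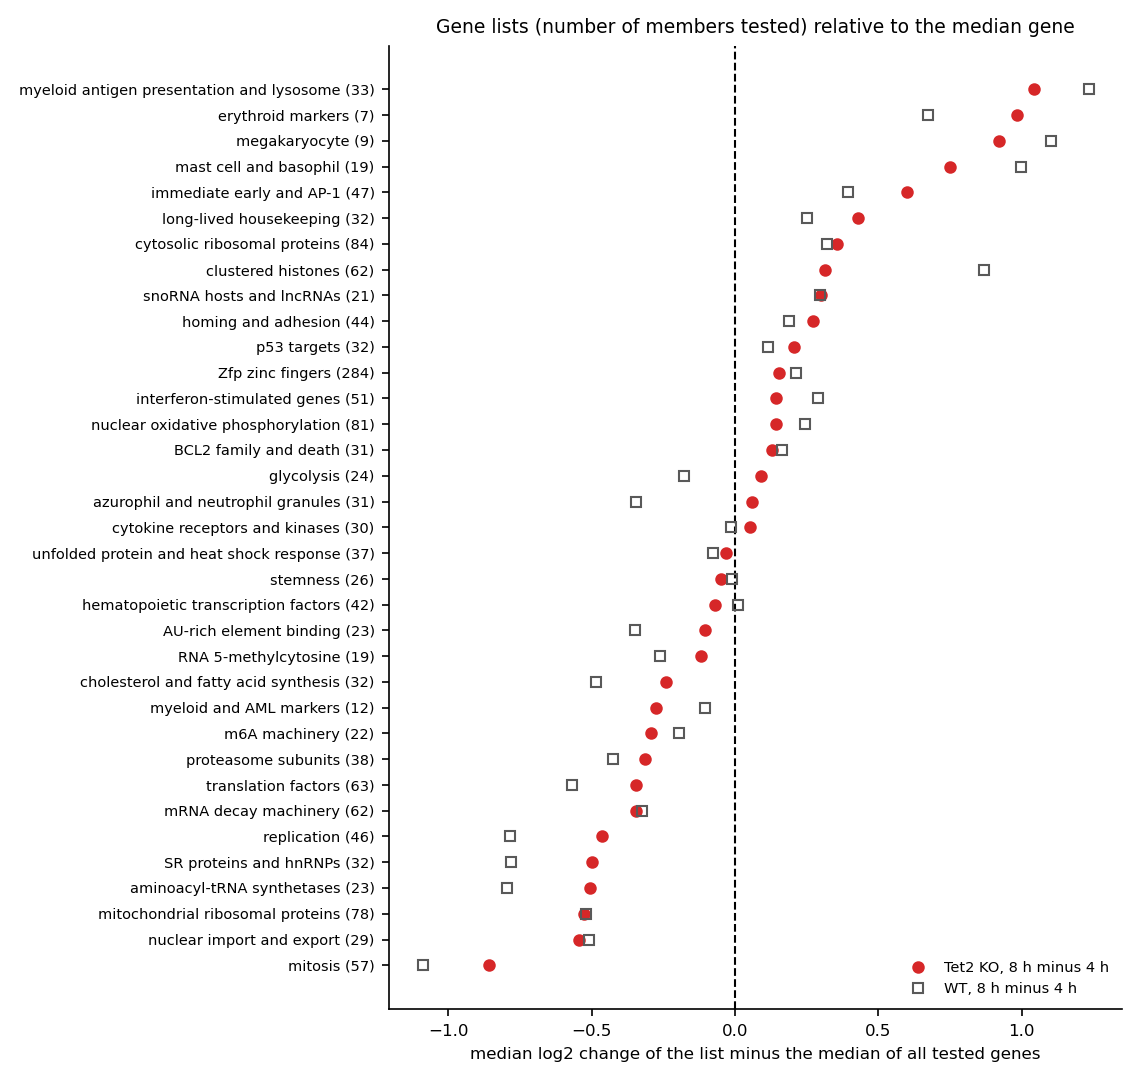
Median change of the members of each gene list between 4 h and 8 h, minus the median of all tested genes (log2(TPM + 1), horizontal axis, dashed line at 0), in KO cells (filled circles) and WT cells (open squares), with the number of members in brackets. In KO cells mitosis, import and mitochondrial ribosomal genes lie furthest left and the lysosome, erythroid and megakaryocyte lists furthest right.

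Cytosolic ribosomal protein genes took 26.5% and 26.7% of the TPM after 4 h and 28.7% and 28.9% after 8 h. Their direction changed with the processing, except relative to the median gene. As deposited 30 of 84 rose and 14 fell (median 0.08), against 8.97% and 43.1% of all tested genes. Relative to the median gene 56 were higher and 2 lower, against 19.5% and 26.4% of all tested genes. On that relative scale 65 were higher and 1 lower with median-ratio scaling, and 55 and 2 with housekeeping scaling. After removal of a trend on transcript length they were 37 and 7. Without the median subtracted, median-ratio scaling called 71 higher and 0 lower, housekeeping scaling 18 higher and 18 lower, and the length correction 7 higher and 35 lower. Leaving out KO 8 h replicate 1 gave 19 higher, and leaving out KO 8 h replicate 2 gave 9 lower. Rps15 rose from 4584 and 4816 TPM to 6779 and 6716, by 0.52 ± 0.06, and Rpl28 from 5189 and 5506 to 7424 and 7292, by 0.46 ± 0.05. Rps21 fell from 6778 and 6729 to 4084 and 4226 TPM, a change of -0.70 ± 0.18, and Rps27l, a p53 target related to a ribosomal protein, from 1167 and 1298 to 846 and 832, a change of -0.55 ± 0.06. Many of these genes have processed pseudogenes that can take reads. The direction of nuclear genes of oxidative phosphorylation also changed with the processing. As deposited 12 of 81 were higher and 28 lower (median -0.13), and relative to the median gene 31 were higher and 11 lower. Median-ratio scaling gave 50 higher and 5 lower, and the length correction 2 higher and 48 lower. Relative to the median gene, the length correction left 18 higher and 16 lower. The 31 were 18 without KO 8 h replicate 2 and 19 without KO 4 h replicate 1, and the 11 lower were 7 without the latter. The complex I subunits Ndufs7 and Ndufv2 fell (-1.36 ± 0.09 and -1.08 ± 0.07), and the ATP synthase subunit Atp5e rose by 0.67 ± 0.12.

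The transcription factor, signalling, cell death and interferon lists had shares of lower members near or under the 43.1% of all tested genes that were lower, so their counts are no result about the lists, and single members are given. Of 42 hematopoietic transcription factor genes 21 were lower and 2 higher (median -0.34, or -0.07 relative to the median gene), with 8 higher and 10 lower under median-ratio scaling and 1 to 4 higher when 1 library was left out (1 without KO 4 h replicate 2 or KO 8 h replicate 1, and 4 without KO 8 h replicate 2). Spi1, the master regulator PU.1 of myeloid cells, fell from 125 and 128 TPM to 34.4 and 36.4, a change of -1.81 ± 0.08 (limma adjusted p = 2.28e-08), after 287 and 266 at 0 h. Nfe2l2, the antioxidant response factor NRF2, fell (-1.23 ± 0.12), the MYC partner Max (-1.01 ± 0.11), and the RUNX1 partner Cbfb (-0.97 ± 0.10). Cytokine receptor and kinase genes had 14 of 30 lower and 6 higher, or 3 higher without KO 4 h replicate 2, 7 lower and 9 higher relative to the median gene, and 13 higher and 5 lower with median-ratio scaling. The kinase Jak1 fell (-0.68 ± 0.08), while Il3ra, the receptor chain for the IL-3 in the medium, rose from 41.5 and 38.4 to 79.2 and 72.5 TPM, by 0.91 ± 0.12. Nras had a change of -0.16 ± 0.08 that did not pass (limma adjusted p = 0.124). Cell death genes had 14 of 31 lower and 5 higher, or 3 higher without KO 4 h replicate 2, 9 lower and 7 higher relative to the median gene, and 14 higher and 6 lower with median-ratio scaling. Among them Bid, a death agonist, changed (-1.70 ± 0.11) and Bcl2l2, a survival protein, by 0.63 ± 0.12. Interferon-stimulated genes had 13 of 51 lower and 9 higher, and 18 higher and 4 lower with that scaling; Bst2, which tethers virions, rose by 1.00 ± 0.07.

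Tet2, the gene named in the genotype, had 6.42 and 5.82 TPM after 4 h and 4.32 and 4.52 after 8 h in the KO cells, so both 8 h libraries were lower. The change of -0.39 ± 0.13 (limma adjusted p = 0.0206) was -0.12 relative to the median gene (adjusted p = 0.481). It did not pass without KO 4 h replicate 1 (adjusted p = 0.124), without KO 8 h replicate 1 (0.0814) or when only the KO 4 h and 8 h libraries were fitted (0.0525), and with median-ratio scaling it was 0.04. Cxcr4, the chemokine receptor of homing to bone marrow, went from 71.3 and 68.1 TPM at 0 h to 4.97 and 5.58 after 4 h and 2.97 and 2.39 after 8 h. Most of that loss was early, -3.50 against a late change of -0.77 ± 0.14 (limma adjusted p = 0.000598), and the late minus early change was 2.72 (adjusted p = 6.67e-06). The level of Cxcr4 at 4 h left no room on this scale for a late loss as large as the early one. Tspan13, a tetraspanin, had 10.6 and 9.04 TPM after 4 h and 10.5 and 12.5 after 8 h, and these overlap. Its change of 0.21 ± 0.21 did not pass (limma adjusted p = 0.424), although with median-ratio scaling it was 0.69 (adjusted p = 0.0214). Ybx1, a reader of 5-methylcytosine in RNA, rose from 1173 and 1205 TPM to 1604 and 1598, by 0.43 ± 0.08 (limma adjusted p = 0.000916).

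More of the other RNA modification genes fell than rose, and over all tested genes 43.1% fell and 8.97% rose. Of 19 genes that write, read or remove RNA 5-methylcytosine 11 fell and Ybx1 alone rose (median -0.39), with 4 higher and 7 lower under median-ratio scaling. Relative to the median gene 6 of the 19 were lower and 2 higher (median -0.12), against 26.4% and 19.5% of all tested genes. On that scale 10 of 22 m6A genes were lower and 2 higher (median -0.29). The nucleolar writer Nop2 fell from 15.5 and 17.1 TPM to 3.86 and 5.66, a change of -1.60 ± 0.15, and the export factor Alyref, another reader, from 90.7 and 108 to 39.8 and 40.2, a change of -1.29 ± 0.10. Of 22 m6A genes 15 fell and 1, Rbm15 (0.34 ± 0.13, limma adjusted p = 0.0483), was higher, a count of 0 with any 1 of the 4 KO libraries left out and with housekeeping scaling, with the writer Mettl16 at -1.30 ± 0.12 and the erasers Alkbh5 and Fto at -1.09 ± 0.12 and -0.98 ± 0.12. AU-rich element binding proteins had 14 of 23 lower and 1 higher (0 without KO 4 h replicate 2 or KO 8 h replicate 1), and 7 higher and 6 lower with median-ratio scaling; the poly(C) binding protein Pcbp1 fell (-1.38 ± 0.07). Of 44 homing and adhesion genes 15 were higher and 15 lower, against 8.97% and 43.1% of all tested genes. Relative to the median gene 21 were higher and 8 lower, against 19.5% and 26.4% of all tested genes. With median-ratio scaling 28 were higher and 5 lower. The integrin chains Itgb2 and Itgax rose by 0.97 ± 0.08 and 1.19 ± 0.10, the tetraspanin Cd9 by 1.00 ± 0.08, and the chemokine receptor Cxcr2 fell (-1.28 ± 0.13). Stemness genes had 12 of 26 lower and 2 higher, close to the 43.1% and 8.97% of all tested genes. Fewer were lower without KO 4 h replicate 1 or KO 8 h replicate 2. Relative to the median gene 8 were higher and 7 lower, and fewer were higher with any 1 of the KO libraries left out. With median-ratio scaling 8 were higher and 6 lower. The transcription factors Erg and Myb fell (-1.13 ± 0.14 and -0.78 ± 0.10), and the surface receptor Adgrg1 rose by 0.41 ± 0.07.

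Among noncoding RNAs, Rpph1, the RNA of the RNase P enzyme, had the largest gain of all named genes. It had 253 and 291 TPM at 0 h, 321 and 381 after 4 h and 2704 and 3026 after 8 h, a late change of 3.03 ± 0.20 (limma adjusted p = 2.38e-07), and 7215 and 4663 TPM in WT cells at 8 h. Rpph1 is 319 nt long and is not polyadenylated in general, and a kit that selects mRNA may measure such RNA poorly. Malat1, a nuclear long noncoding RNA, rose from 325 and 334 TPM to 1051 and 1008, by 1.64 ± 0.08, after 406 and 418 at 0 h, so its late gain followed an early change of -0.32. Of 21 snoRNA host genes and long noncoding RNAs 4 rose and 4 fell, with Snhg20 at 0.95 ± 0.09 and Snhg3 at -0.99 ± 0.17, and 3 higher and 7 lower after the length correction. For this list and the next, the shares over all tested genes were 8.97% higher and 43.1% lower. Of 62 clustered histone genes, whose mRNAs mostly lack a poly(A) tail and whose copies share reads, 7 rose and 4 fell, with 4 higher and 8 lower after the length correction. This balance rests on single libraries, with 4 higher and 1 lower without KO 4 h replicate 1 and 7 higher and 9 lower without KO 8 h replicate 2. The linker histone gene Hist1h1c rose from 181 and 174 to 369.8 and 360.0 TPM, by 1.04 ± 0.08. Zinc finger genes of the Zfp family had 44 of 284 lower and 5 higher (median -0.12), against 43.1% lower over all tested genes, 29 higher and 12 lower relative to the median gene, and 32 higher and 12 lower with median-ratio scaling. In the first 4 h 277 of them had fallen, and all together held 0.077% and 0.076% of the TPM in the KO libraries at 4 h. The pseudocount compresses late changes at such levels, so the low count does not show that these mRNAs were spared. Without KO 4 h replicate 2 there were 25 lower and 0 higher, and relative to the median gene 14 higher and 7 lower. Without KO 4 h replicate 1 there were 2 higher, and relative to the median gene 15 were higher without it and 14 without KO 8 h replicate 1.

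The length of transcripts, taken from the GENCODE M21 annotation of GRCm38, sorted the late changes much less than the early ones. From the shortest to the longest of 5 equal bins of transcripts the late median went from -0.17 to -0.31, against -0.11 to -1.23 in the first 4 h. For the 3' UTR these values were -0.24 to -0.32 late and -0.28 to -1.16 early. Genes with the AU-rich nonamer in the 3' UTR had a late median of -0.26 and genes without it -0.29, against -1.12 and -0.68 early. GC content of the 3' UTR sorted the late changes in order, from -0.40 in the bin with the least GC to -0.12 in that with the most, and in WT cells from -0.51 to -0.38. The 14 of the 15 lowest named genes with an annotated 3' UTR had a median UTR of 267.5 nt and the 12 of the 15 highest had 281.5 nt, and no gene of either group holds the nonamer. These are descriptions across genes, which are not replicates, and the late and early values share the 4 h libraries.

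**Figure D4:**
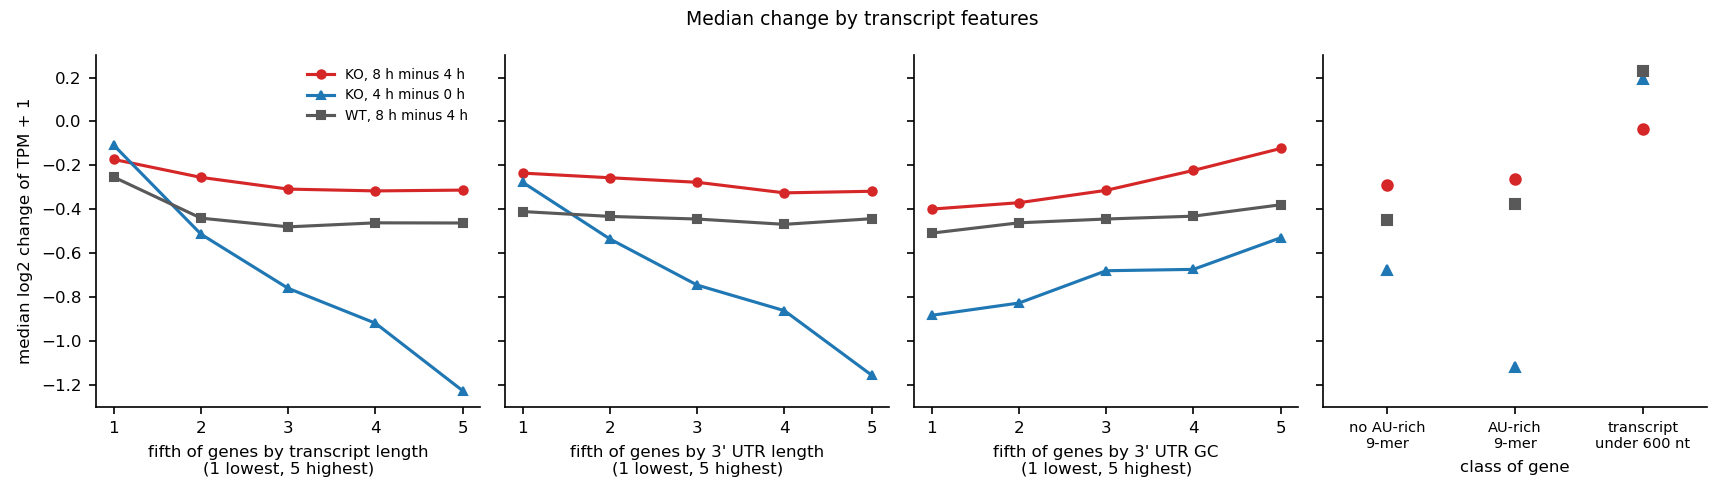
Median change of the tested genes (log2(TPM + 1), vertical axis) in 5 equal bins of transcript length, 3' UTR length and 3' UTR GC content (bin 1 lowest) and in 3 classes of gene, for the KO late (circles), KO early (triangles) and WT late (squares) windows. The KO late line is nearly flat over length, from -0.17 to -0.31, and climbs with GC from -0.40 to -0.12, while the KO early line drops with length to -1.23.

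The late loss in KO cells differed from that in WT cells for a minority of genes, and the contrast uses 8 distinct libraries. As deposited the KO change minus the WT change had a median of 0.13, with 1195 genes higher (10.7%) and 192 lower (1.72%), and relative to the median gene 500 were higher (4.48%) and 272 lower (2.44%). With housekeeping scaling the balance turned, to 526 higher and 585 lower. The counts also depend on single libraries. As deposited 600 were higher and 98 lower without KO 4 h replicate 2, and the relative counts were 174 higher without WT 4 h replicate 2 and 111 lower without KO 4 h replicate 1. Igfbp4, which binds insulin-like growth factors, had 650.1 and 625 TPM after 4 h and 807 and 779.7 after 8 h in KO cells, but 363 and 353 and then 168 and 172 in WT cells. The difference of 1.39 ± 0.09 (limma adjusted p = 4.48e-05) came with a gain in KO and a loss in WT cells. Camp, cathelicidin of secondary granules, had 17.6 and 14.9 and then 17.6 and 21.6 TPM in KO cells (late limma adjusted p = 0.188) and fell in WT cells from 344 and 346 to 126 and 120.0, a difference of 1.73 ± 0.22 (limma adjusted p = 0.000988). Spint2, a protease inhibitor, and Ankle1, a nuclease of blood cells, differed by 1.30 ± 0.13 and 1.54 ± 0.15 in the same direction. Ctsg differed by 1.08 ± 0.09, Ms4a3 by 0.89 ± 0.08 and Prtn3 by 0.60 ± 0.09, all less negative in KO cells, whereas Mpo (-0.45 ± 0.16, limma adjusted p = 0.0972) and Elane (-0.16 ± 0.17, adjusted p = 0.613) did not pass. Ybx1 changed by 0.43 in KO and -0.24 in WT cells, a difference of 0.67 ± 0.12 (limma adjusted p = 0.00420), and for Tet2, Cxcr4 and Tspan13 no difference passed (adjusted p = 0.318, 0.577 and 0.365).

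Several of the most negative differences were those of short transcripts. Rps21 (394 nt) had 6778 and 6729 TPM after 4 h and 4084 and 4226 after 8 h in KO cells, and 2754 and 2917 and then 6165 and 6319.6 in WT cells, a difference of -1.84 ± 0.26 (limma adjusted p = 0.00165). Rpl38 (457 nt) and Rps29 (390 nt) differed by -1.70 ± 0.26 and -1.79 ± 0.35, and the cytochrome oxidase subunit Cox7a1 (485 nt) (-2.56 ± 0.59), with KO libraries at 4 h as far apart as 15.4 and 29.8 TPM. Ndufa5, a complex I subunit, fell in KO cells from 14.6 and 12.4 to 6.77 and 4.09 TPM and rose in WT cells from 4.13 and 3.95 to 10.9 and 11.4, a difference of -2.47 ± 0.47. Rab26os, an antisense gene of 477 nt, had 8.21 and 12.5 TPM after 4 h and is listed at 0 in both KO libraries after 8 h, against 18.1 and 15.6 in WT cells, and it is uncertain since the strand setting of the counting is not given. The 183 genes with transcripts under 600 nt as a class had medians of -0.03 in the KO late window, 0.19 in the KO early window and 0.23 in the WT late window, against -0.28, -0.73 and -0.44 for longer ones. Whether transcript length has a part in these differences was not tested.

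**Figure D5:**
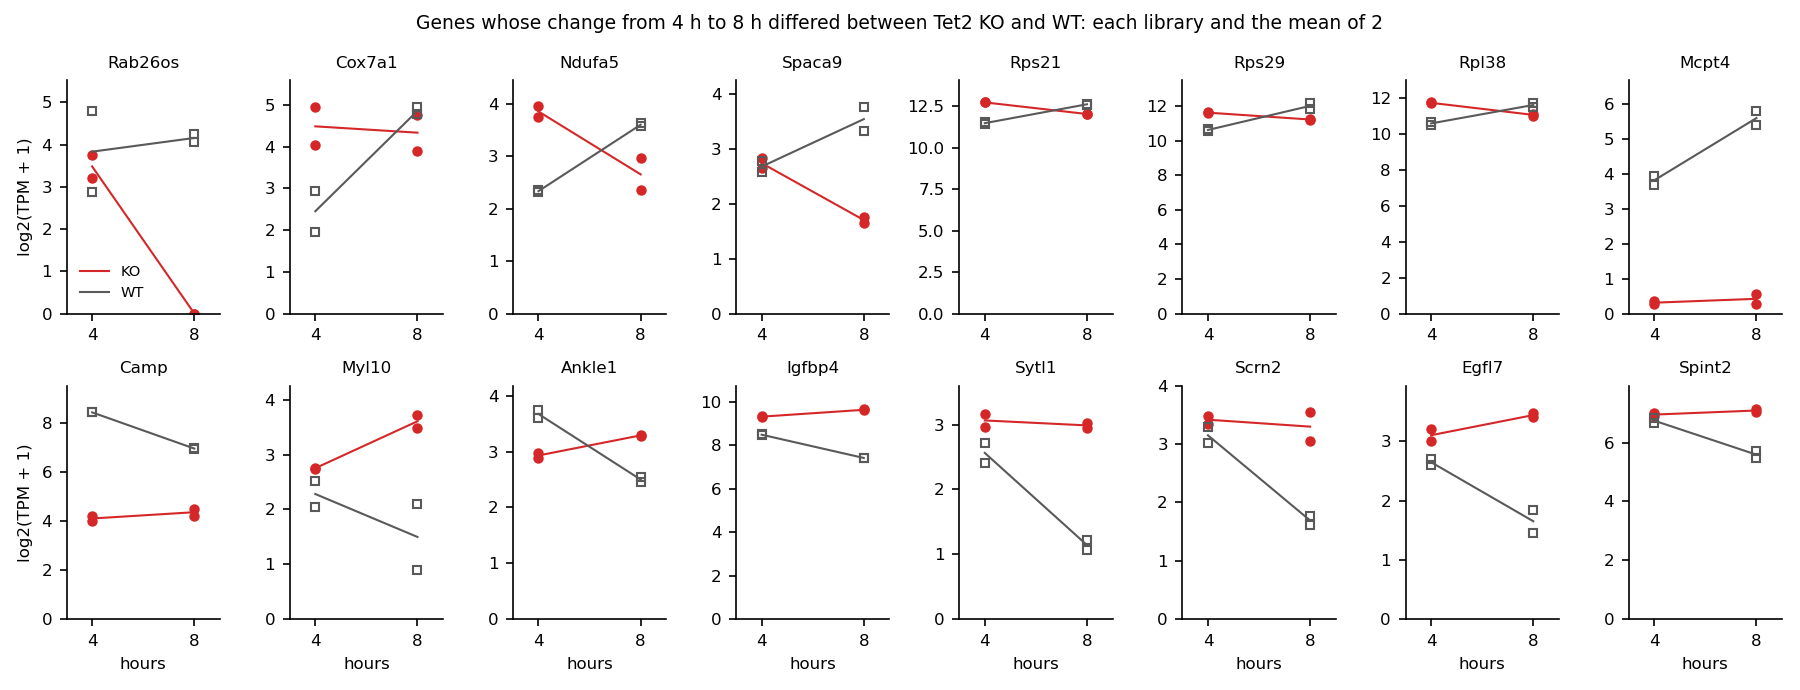
log2(TPM + 1) at 4 h and 8 h of actinomycin D (horizontal axis) in KO (filled) and WT (open) cells for the 16 named genes whose late change differed between them, with 1 point per library and a line through the mean of 2; each panel has its own axis from 0. Igfbp4 falls in WT cells and rises in KO cells, and Rps21 and Ndufa5 rise in WT cells and fall in KO cells. Mcpt4 is under 1 TPM in the KO libraries, where its change is compressed.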

How the data were processed

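Gene-level TPM were deposited by the authors in 1 table of 12 libraries, and each library sums to 1000000 within 1. STAR, RSEM and the mm10 build are named per the submitters' processing notes; no version is given in the sources used here, nor is the annotation or the strandedness of counting. TPM keep no depth, so no counting error could be given.

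Groups were taken from the sample labels. Of 24589 genes, 11152 reached 1 TPM in 2 or more libraries and were tested as log2(TPM + 1), which understates the change of low genes. Limma 3.58.1 in R 4.3.3 was fitted with 1 mean per group over all 12 libraries, which leaves 6 residual degrees of freedom, with an empirical Bayes trend and Benjamini-Hochberg adjustment over all tested genes at 0.05. Values relative to the median gene treat that median as known. The code was tested on simulated data. Names turned into dates (27) were not named in the text.

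Named genes are Tet2, Tspan13, Cxcr4 and Ybx1, the 15 largest late changes each way (mean of at least 5 TPM, no overlap), the 8 largest each way for the contrasts with the early window and with WT, and of each list the 4 smallest p and the largest change each way. Outside that rule, and chosen after their values were seen, are Cd53, Cish, Ctsg, Dusp1, Fos, Gadd45a, Gadd45b, H2-Aa, H2-Ab1, H2-Eb1, Id2, Lamp2, Ltf, Lyz2, Nras, Prss57, S100a8, Tnpo2, Zfp36 and Zfp36l2. Members and gene lists were chosen with earlier results of these data known. Of the tested genes 99.3% matched GENCODE M21 and 96.0% had a 3' UTR. Alternatives were other scalings, pseudocounts and filters, no trend, the compared groups alone, a length correction, a replicate block and each library left out.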

Additional observations from a re-analysis of the deposited data

Results flagged for a closer look

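The change between 4 h and 8 h was tested for a difference between KO and WT cells by limma, adjusted over all tested genes. Of the 11152 tested genes 1195 were higher in this contrast (10.7%) and 192 lower (1.72%). The 16 genes given here are the 8 largest named differences each way past that test, with a mean of at least 5 TPM. Each value is the KO change minus the WT change on the log2(TPM + 1) scale. The more negative ones in KO cells were Cox7a1 (-2.56), Ndufa5 (-2.47), Spaca9 (-1.90), Rps21 (-1.84), Rps29 (-1.79), Rpl38 (-1.70) and Mcpt4 (-1.67), a mast cell protease that was under 1 TPM in the KO libraries. Mcpt4 reached the mean of 5 TPM only through the WT libraries. Its KO change of 0.11 ± 0.17 did not pass (limma adjusted p = 0.622) and is compressed by the pseudocount, so its difference rests on the WT change. Rab26os is listed at 0 in both KO libraries at 8 h, so that its fitted difference of -3.81 depends on the pseudocount and is no fold. The less negative or positive ones were Camp (1.73), Myl10 (1.64), Ankle1 (1.54), Igfbp4 (1.39), Sytl1 (1.34), Scrn2 (1.34), Egfl7 (1.34) and Spint2 (1.30). The call for Myl10 was lost under 14 of 18 alternatives, those for Cox7a1 and Egfl7 under 4 of 19 each, and that for Rps29 under 1 of 19.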

How the results depend on the processing

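With median-ratio scaling the late change of KO cells held 3312 higher and 2266 lower genes, its median turned to 0.083, and the change of Tet2 to 0.042. Without KO 8 h replicate 1 the median was -0.29, and without replicate 2 it was -0.27. The median was -0.34 with housekeeping scaling, -0.090 with no filter, -0.38 with a mean of at least 5 TPM, -0.38 and -0.32 with pseudocounts of 0.1 and 0.5, and -0.32 with the length trend removed. For the late minus early change, median-ratio scaling gave 2717 higher and 2835 lower, housekeeping scaling 1493 lower, and a mean of at least 5 TPM 2648 higher. Leaving out 1 library gave 431 to 782 lower (431 and 433 without KO 4 h replicates 1 and 2) and, relative to the median gene, 1460 to 2252. The difference from WT held 773 higher and 539 lower genes with median-ratio scaling, 526 and 585 with housekeeping scaling, 709 and 125 without the trend, and 123 lower with no filter. Relative to the median gene it held 793 higher and 529 lower, 461 lower with housekeeping scaling, 194 and 147 without the trend, and 144 lower with no filter. Leaving out 1 library gave 600 to 1303 higher and 98 to 193 lower, the fewest in both directions without KO 4 h replicate 2. Relative to the median gene this was 174 to 497 higher, fewest without WT 4 h replicate 2, and 111 to 266 lower, fewest without KO 4 h replicate 1. The cause of these shifts was not tested.

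Replicate numbers did not pair the samples, as same-numbered libraries deviated together with correlations of -0.08 to 0.05. With the replicate number as a block, 980 genes were higher and 4777 lower in the late change, and 1100 higher and 179 lower in the difference from WT.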
